A study of Xenopus tropicalis with 44 samples.

Results

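Genes of Mediator, Integrator, the transcription elongation machinery and the cleavage and polyadenylation complexes were followed through early development of the frog Xenopus tropicalis. They were chosen by name, with earlier results of these data known. The rows taken were those whose symbols belong to the med, ints, nelf, ell, aff, cpsf and cstf families, the supt genes of DSIF and Spt6, and the kinase and cyclin genes cdk7, cdk8, cdk9, cdk12, cdk13, cdk19, ccnk, ccnt1 and ccnt2. The rule found 78 genes of 28778 in the table, and all 78 were among the 16064 genes that passed the filter on low counts. The genes med12l, cstf2t and ints15 were not analysed here.

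Mediator is a large coactivator that joins transcription factors to RNA polymerase II, and its kinase module, built on Cdk8 or Cdk19, can detach from the core. After initiation the polymerase pauses under NELF and DSIF (Spt4 with Spt5) until P-TEFb, which is Cdk9 with cyclin T, phosphorylates them, and AFF and ELL proteins join P-TEFb in the super elongation complex. Integrator cleaves nascent RNA near promoters and carries a phosphatase module, while CPSF and CstF form the 3′ ends of mRNAs. Frog eggs carry maternal mRNA of many such genes, and most transcription of the embryo's own genome begins in the blastula.

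RNA of whole embryos was sequenced in 44 libraries, 2 for each of 22 groups. Embryos were injected with morpholinos (MO, antisense oligonucleotides that block translation or splicing) against both E2F1 and OTX1 (double MO, stages 7 and 8), against OTX1 (stages 7 and 8), with E2F1 mRNA together with MO (E2F1 rescue, stages 6, 7 and 8), or against E2F1 alone (stages 3, 4, 5, 6, 7 and 8). The wild-type (WT) embryos, labelled as having no treatment, covered stages 3, 4, 5, 6, 7, 8, 9, 10 and 13. No group received a control morpholino, so effects of injection and of the morpholino's target cannot be told apart. Whether the 2 libraries of a group stem from different clutches is not stated in the labels. The p-values here therefore reflect only how far the libraries of a group spread, estimated over all 22 groups together, which may be technical. In whole embryos, fewer cells of a type and less RNA per cell cannot be told apart.

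Library totals ran from 9266513 to 37174326 counts, with a median of 20541736, and 3 counts corresponded to 0.0706 to 0.329 CPM (counts scaled to a common library size). The e2f1 RNA stood at 32300 and 32700 CPM in rescue embryos of stage 7, 404 and 413 CPM in E2F1 MO embryos and 491 and 495 CPM in WT, and otx1 at 165 and 170 CPM in OTX1 MO embryos and 106 and 101 CPM in WT. At stage 7, e2f1 also had 411 and 428 CPM in OTX1 MO embryos. The otx1 RNA had 144 and 145 CPM in E2F1 MO and 136 and 135 CPM in rescue embryos. Shifts from WT in the same direction thus appeared as well in groups not given that gene's morpholino. For e2f1 the log2 change was -0.27 in E2F1 MO (adjusted p = 0.034, edgeR) and -0.23 in OTX1 MO embryos (adjusted p = 0.066, not called). For otx1 it was 0.49 in E2F1 MO and 0.39 in rescue embryos (adjusted p = 2.9e-05 and 0.00091, edgeR). The RNA of a gene whose translation is blocked need not fall. The summed level of 7 blastula and gastrula markers in E2F1 MO embryos of stage 7 was 35 to 36 CPM, against 0.612 to 0.79 CPM in WT of stage 7 and 45.6 to 51.5 CPM in WT of stage 8. At stage 8 that sum was 8.01 to 9.27 CPM in double MO, 12.3 to 16.1 CPM in OTX1 MO, 2.36 to 2.98 CPM in rescue and 37.6 to 38 CPM in E2F1 MO embryos, all below WT of stage 8. In the other injected groups of stage 7 it was 1.67 to 1.76 CPM in double MO, 1.99 to 2.25 CPM in OTX1 MO and 0 to 0.0772 CPM in rescue embryos. These markers thus differed between injected and WT embryos of the same labelled stage. At stage 7 the double MO and OTX1 MO libraries lay above both WT libraries and the rescue libraries below them, all at low CPM. The E2F1 MO libraries lay furthest above WT of that stage. Other markers did not all move alike. At stage 7, 6 neurula markers summed to 12.8 to 12.9 CPM in E2F1 MO, against 5.77 to 6.91 CPM in WT. They summed to 1.84 to 3.55 CPM in double MO, 2.29 to 2.68 CPM in OTX1 MO and 4.18 to 4.55 CPM in rescue embryos. In E2F1 MO embryos of stage 7, 6 egg and oocyte markers summed to 1320 to 1330 CPM. WT had 1060 to 1120 CPM at stage 7 and 1060 to 1100 CPM at stage 8. The part of these marker differences in the results was not tested. Differences from WT of the other stage are therefore given for the genes named at these stages. Markers of adult cells summed to at most 2.31 CPM in any library. The 2 libraries of a group differed most in rescue of stage 8, with a chi-square of their counts of 31 per gene, in double MO of stage 7 with 13 and in WT of stage 10 with 13.4, against 1.4 to 5.19 in the other groups. This measure grows with depth. Leaving out replicates 1 and 2 in turn gave 45 and 50 called members for rescue of stage 8, 48 and 40 for double MO of stage 7, each against WT of its stage, and 53 and 59 for WT of stage 10 against stage 9, at an adjusted p under 0.05.

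In WT embryos the 78 genes did not follow a common course. Their highest stage mean lay at stages 10 or 13 for 41 genes, at stages 3 to 6 for 28 and at stages 7 to 9 for 9. The highest and lowest stage means differed by more than 2-fold for 65 genes and by more than 4-fold for 31, with a median of 3.67-fold. How peak stages and ranges fall over all genes tested is not given here. At stage 13 against stage 3, 49.1% of all genes were called higher and 37.4% lower. The ranges of the members depend on the scaling of the libraries. With CPM on total counts the log2 range of 63 of the 78 moved by more than the mean SD between their replicates. Over the 8 steps between adjacent stages, 53 genes were called in both directions, at an adjusted p under 0.05 in edgeR's quasi-likelihood test with Benjamini-Hochberg adjustment over all genes tested. Single steps called 8.81% to 76.9% of all genes tested, and the share of all genes called in both directions is not given here. The genes aff2, med12 and med16 were called in no step.

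**Figure D1:**
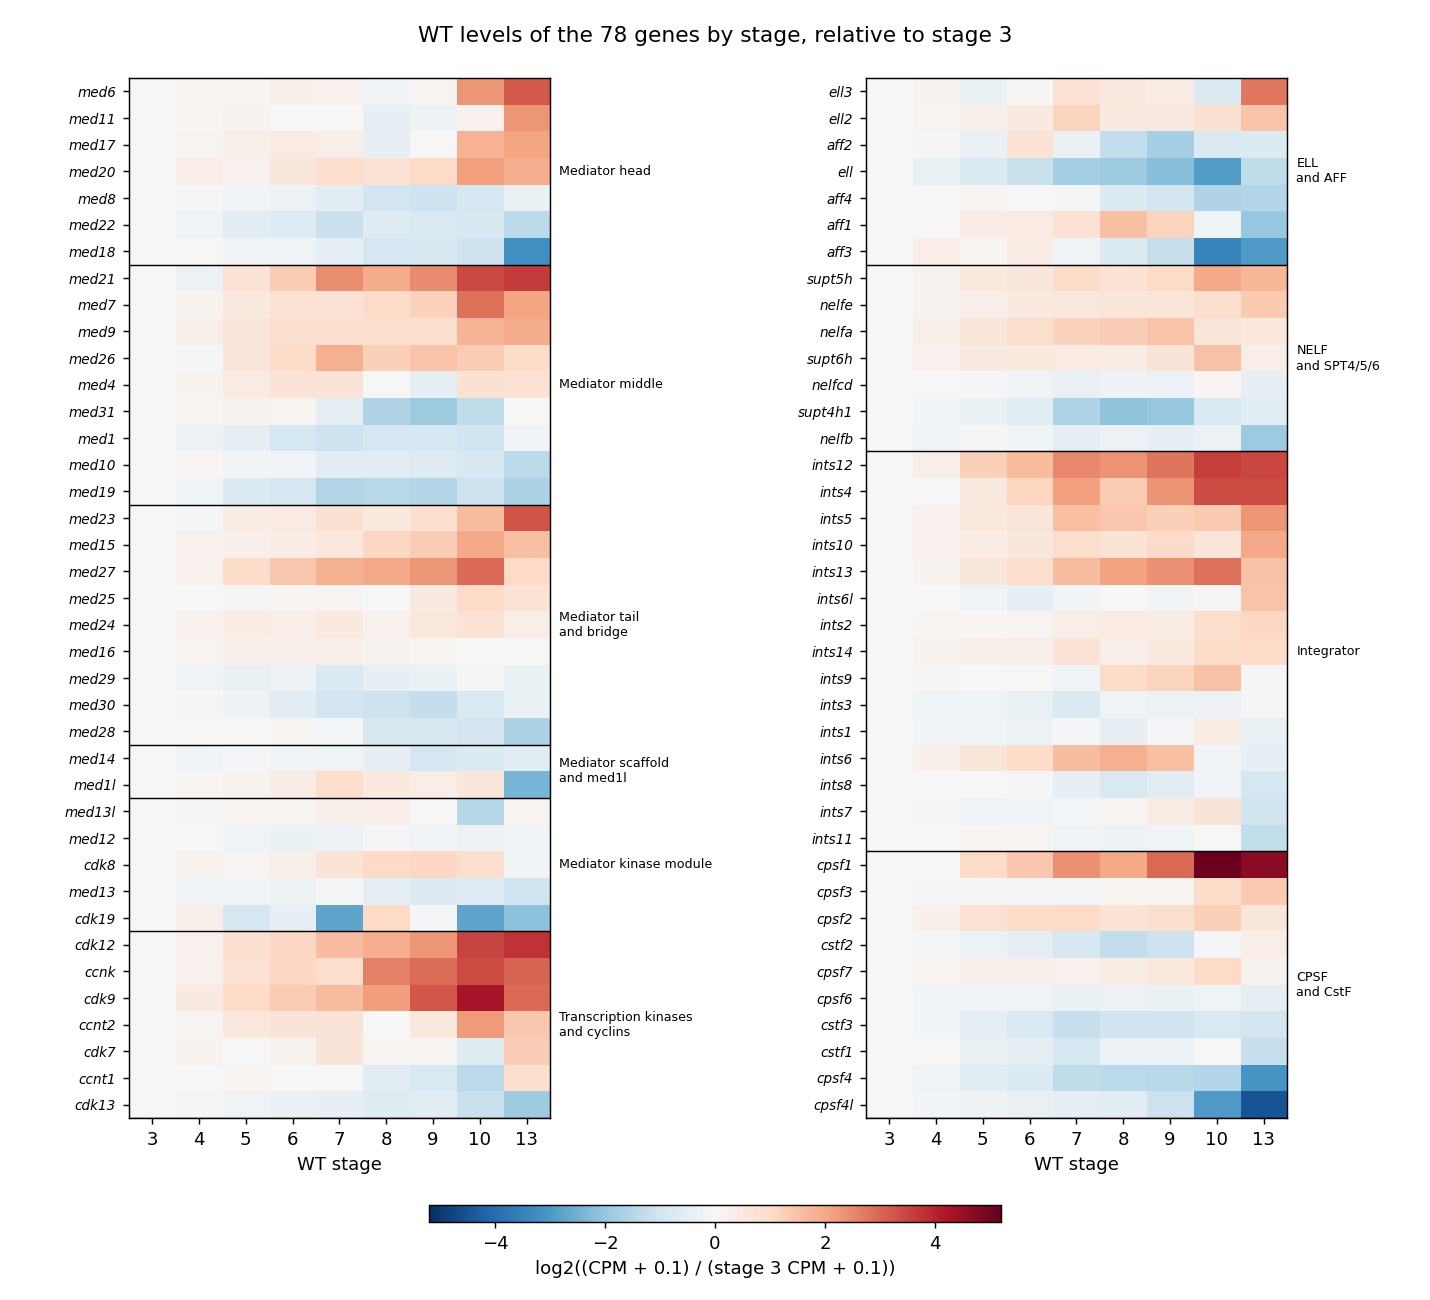
Heat map of the 78 genes, grouped by role, over the 9 WT stages; colour gives log2 of the mean CPM plus 0.1 relative to stage 3 (red, higher; blue, lower; mean of 2 libraries). Genes of the same complex run in opposite directions, and cpsf1 and cdk9 reach the deepest red at stage 10.

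The transcription kinases and cyclins held some of the widest ranges, and 6 of the 7 were highest at stages 10 or 13. The share of all genes highest there is not given. The P-TEFb kinase gene cdk9 had 599 and 477 CPM at stage 10, against 30.5 and 24 CPM at stage 3, and its highest and lowest stage means differed 19.7-fold. Its mean was higher at each stage than at the stage before up to stage 10, and its libraries stood at 208 and 213 CPM at stage 13. The kinases Cdk12 and Cdk13 both pair with cyclin K and act on the elongating polymerase, and their genes went opposite ways. Per gene length, cdk12 had 3.86 and cdk13 had 104 RPKM (CPM divided by gene length in kilobases) at stage 3, and they had 43.9 and 46.8 RPKM at stage 10. By stage 13 the order had turned, with 52.7 RPKM for cdk12 and 28.8 RPKM for cdk13. In CPM, cdk12 had 334 and 355 at stage 13, against 28.9 and 21.5 at stage 3, a log2 change of 3.78 ± 0.13 (SE; adjusted p = 3.3e-21, edgeR). The libraries of these stages lay far apart. The gene cdk7, which encodes the kinase of TFIIH, had 30.7 and 33.9 CPM at stage 13, against 9.12 and 7.58 CPM at stage 10 (log2 change of 1.94 ± 0.15, adjusted p = 3.6e-15, edgeR).

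The cyclin genes changed at different times. The cyclin K gene ccnk had 131 and 132 CPM at stage 8, against 40.7 and 39.1 CPM at stage 7, with no overlap between stages (log2 change of 1.72 ± 0.07, adjusted p = 1.6e-22, edgeR). The genes of cyclins T1 and T2, alternative partners of Cdk9, moved apart at the onset of gastrulation. At stage 10, ccnt2 had 197 and 218 CPM, against 63.6 and 64.8 CPM at stage 9 (log2 change of 1.69 ± 0.07, adjusted p = 4.7e-24, edgeR). At that stage ccnt1 was at its lowest, and it had 141 and 139 CPM at stage 13, against 25 and 36 CPM at stage 10 (log2 change of 2.22 ± 0.09, adjusted p = 2.6e-24, edgeR). Per gene length, ccnt2 stood at 39.4 RPKM and ccnt1 at 3.83 RPKM at stage 10.

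**Figure D2:**
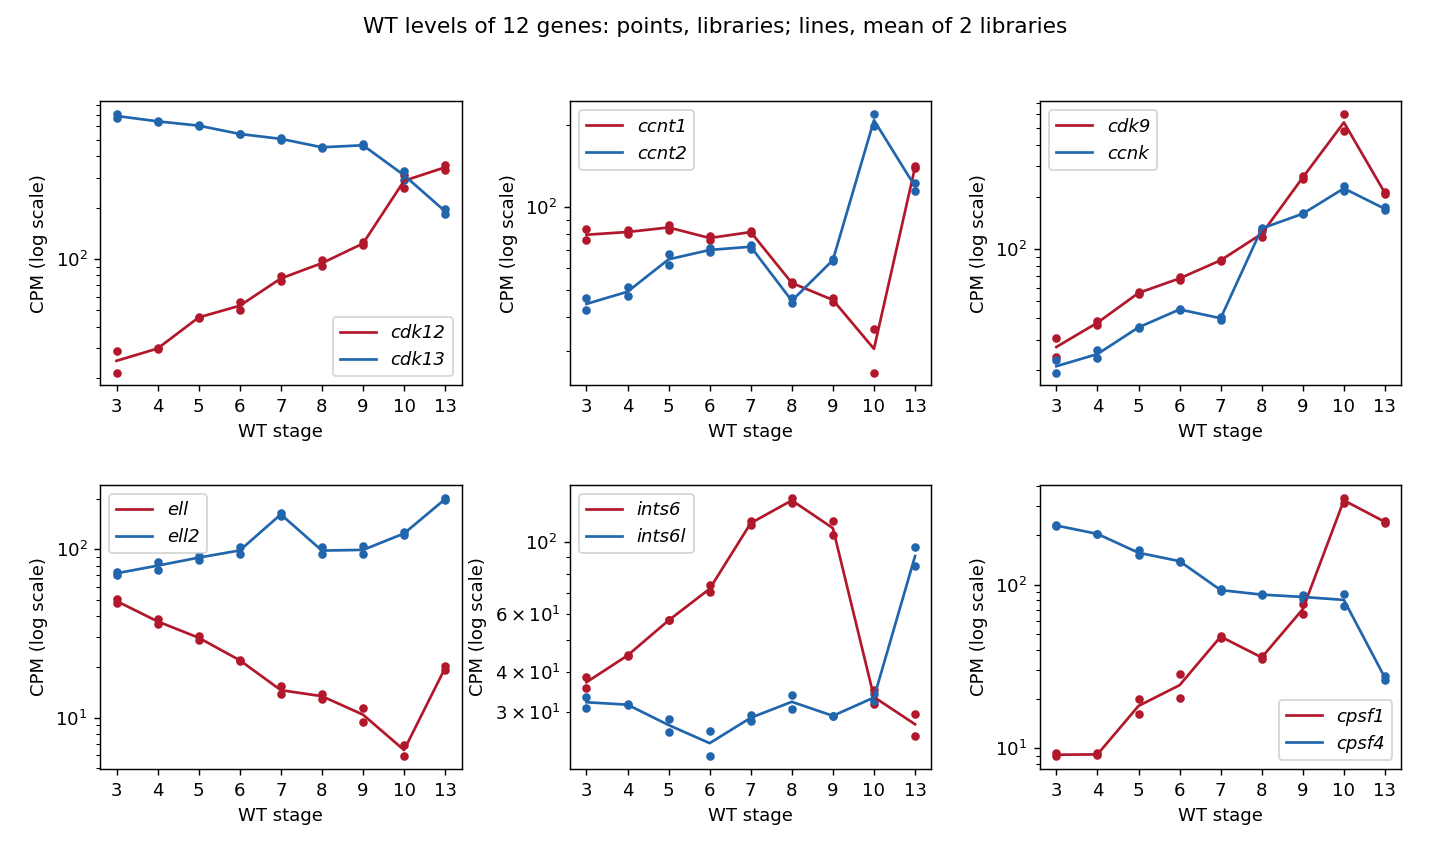
CPM on a log axis at the 9 WT stages for 12 genes, with a point per library and a line through the mean of 2 libraries. The lines of cdk12 and cdk13 cross after stage 10, ccnt2 is highest where ccnt1 is lowest, and ints6 comes down to the level of ints6l at stage 10.

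Among the ELL and AFF genes, ell, whose product raises the elongation rate of the polymerase, was highest at stage 3. It had 5.91 and 6.92 CPM at stage 10, against 50.6 and 47.8 CPM at stage 3, and 20.2 and 19.2 CPM at stage 13. Its paralog ell2 had 93.3 and 103 CPM at stage 8, against 165 and 157 CPM at stage 7, and the stages did not overlap (log2 change of -0.71 ± 0.07, adjusted p = 2e-11, edgeR). The scaffold gene aff4 had 44.3 RPKM at stage 3 and 15.5 RPKM at stage 13, above its paralogs aff1, aff2 and aff3 at each WT stage. The related scaffold gene aff1 peaked at 46.6 and 46.9 CPM at stage 8 and had 3.11 and 4.73 CPM at stage 13. The genes aff3 and ell3 had no counts in WT of stage 10.

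Mediator genes split within modules. In the head, which contacts the polymerase, med6 had 34.8 and 26 CPM at stage 10, against 6.67 and 6.63 CPM at stage 9 (log2 change of 2.21 ± 0.15, adjusted p = 1.2e-16, edgeR). The head's core subunit gene med17 rose in the same step, by 1.87 ± 0.14 (adjusted p = 4.4e-16). The head gene med18 fell late, to 22 and 24.3 CPM at stage 13, against 110 and 90.4 CPM at stage 10 (log2 change of -2.12 ± 0.08, adjusted p = 1.6e-25). In the middle module, med21 had 45 and 42.3 CPM at stage 13, against 3.66 and 3.17 CPM at stage 3, and med19 had 74.4 and 67.9 CPM, against 219 and 222 CPM. In the tail, which many activators bind, med23 had 237 and 271 CPM at stage 13, against 79 and 88.2 CPM at stage 10, whereas med27 had 15.2 and 16.1 CPM, against 60.8 and 56.9 CPM. In CPM as scaled here, the flattest Mediator genes were med12 of the kinase module and med16 of the tail. Their highest and lowest stage means differed 1.3-fold and 1.25-fold. In the kinase module, cdk8 exceeded its paralog cdk19 at every WT stage, with 67.6 RPKM for cdk8 and 0.609 RPKM for cdk19 at stage 8. The module's med13l had 27.3 and 51.9 CPM at stage 10, against 113 and 107 CPM at stage 9, lower in both libraries although these differed from each other.

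Of the 15 Integrator genes, 11 were highest at stages 10 or 13, again without a share of all genes to set beside this. The gene ints4, whose product binds the Ints9 and Ints11 cleavage pair, had 31 and 27.8 CPM at stage 10, against 3.08 and 2.27 CPM at stage 3, and ints12 had 24.7 and 22 CPM, against 1.99 and 1.73 CPM. The gene ints9 stepped up at the same stage as ccnk, with 81 and 75.6 CPM at stage 8, against 34.4 and 33.5 CPM at stage 7 (log2 change of 1.21 ± 0.08, adjusted p = 2.7e-16, edgeR). The phosphatase module gene ints6 had 31.7 and 35.1 CPM at stage 10, against 105 and 116 CPM at stage 9 (log2 change of -1.74 ± 0.09, adjusted p = 1.4e-21). Its paralog ints6l had 84.6 and 96.7 CPM at stage 13, against 32.4 and 34.2 CPM at stage 10. Per gene length, ints6 had 30.4 and ints6l 7.66 RPKM at stage 9, and ints6 had 7.58 and ints6l 23.7 RPKM at stage 13.

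Among members with counts at every WT stage, the widest span was that of a 3′ end processing gene. The gene of the largest CPSF subunit, cpsf1, had 315 and 339 CPM at stage 10, against 75.7 and 66 CPM at stage 9 (log2 change of 2.21 ± 0.12, adjusted p = 5.5e-16, edgeR). Its highest and lowest stage means differed 35.8-fold. The zinc finger subunit gene cpsf4 had 26.1 and 27.8 CPM at stage 13, against 230 and 229 CPM at stage 3 (log2 change of -3.08 ± 0.08, adjusted p = 4.8e-33). Its relative cpsf4l had 1.45 and 1.09 CPM, against 31.9 and 29.7 CPM (log2 change of -4.62 ± 0.17, adjusted p = 1.1e-26). Among the pausing factors, supt4h1, which encodes a DSIF subunit, was the most abundant member per length at stage 3 with 261 RPKM and at stage 13 with 179 RPKM. Between these stages it had 50.5 and 54 CPM at stage 7, against 106 and 103 CPM at stage 6. Its DSIF partner supt5h had 473 and 486 CPM at stage 10, against 120 and 125 CPM at stage 3. The NELF subunit gene nelfa had 92 and 92.9 CPM at stage 10, against 173 and 168 CPM at stage 9, a fall outside the spread of the libraries (log2 change of -0.88 ± 0.08, adjusted p = 2.5e-13).

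Counted by step, 6 were higher and 2 lower at stage 4 than at stage 3, where 3.94% and 4.87%, 8.81% together, of all genes tested were called in those directions. For stage 5 against stage 4, 21 were higher and 8 lower (13.1% and 14.2%, 27.3% together, of all genes), and for stage 6 against stage 5, 9 were higher and 6 lower (5.99% and 5.19%, 11.2% together). For stage 7 against stage 6, 25 were higher and 22 lower (24.1% and 22.8%, 46.9% together), and for stage 8 against stage 7, 18 were higher and 29 lower (21.1% and 23.1%, 44.1% together). For stage 9 against stage 8, 23 were higher and 6 lower (13.1% and 11.4%, 24.5% together), for stage 10 against stage 9, 45 were higher and 15 lower (32.7% and 30.6%, 63.2% together), and for stage 13 against stage 10, 22 were higher and 38 lower (40.6% and 36.3%, 76.9% together). Over the longer spans, 35 were higher and 30 lower at stage 9 than at stage 3 (39.7% and 31.5%, 71.2% together), and 39 were higher and 31 lower at stage 13 than at stage 3 (49.1% and 37.4%, 86.5% together). Called genes numbered 2 of 78 without WT stage 3 replicate 2, 1 without WT stage 4 replicate 1 and 2 without WT stage 4 replicate 2 in the first step. In the step to stage 6 they numbered 3 and 9 without WT stage 5 replicates 1 and 2 and 6 without WT stage 6 replicate 1, and in the step to stage 9 they numbered 18 without WT stage 8 replicate 2.

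These splits depend on the scaling of the libraries. With total counts alone the median of all genes moved by 0.1, 0.16, 0.09 and 0.14 on the log2 scale in the 4 steps up to stage 7, by -0.24 for stage 10 against 9, by -0.28 for stage 13 against 10 and by 0.56 for stage 9 against 3. Higher and lower members then numbered 18 and 0 at stage 4, 34 and 4 at stage 5, 17 and 2 at stage 6, 34 and 17 at stage 7, 30 and 24 at stage 10, 16 and 45 at stage 13, each against the stage before, and 49 and 16 between stages 9 and 3. Of all genes called on total counts, 85.1%, 78.9%, 83.7%, 66.8%, 39.6% and 44.5% were higher in these 6 steps and 73% between stages 9 and 3. The splits of members and of all genes moved the same way. When RLE size factors were used instead, they numbered 17 and 11 at stage 5 and 30 and 30 at stage 13, where the median of all genes moved by 0.2 against stage 10 and by 0.25 against stage 3 (41.9% and 59.1% of all genes called were then higher at stages 5 and 13). Of 42 other genes of these pathways that were tested, such as those of the Paf1 complex and the P-TEFb inhibitor HEXIM1, 22 were higher and 11 lower at stage 10 than at stage 9, and 10 were higher and 27 lower at stage 13 than at stage 10.

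In E2F1 MO embryos of stages 3 to 6 few of the genes differed from WT. At stage 3, 4 were higher and 7 lower (3.26% and 4.3%, 7.55% together, of all genes). At stage 4, 1 was higher and 0 lower (2.16% and 0.971%, 3.13% together). At stage 5, 2 were higher and 3 lower (1.67% and 1.57%, 3.24% together), and at stage 6, 1 was higher and 0 lower (1.18% and 0.772%, 1.95% together, edgeR). An unadjusted p under 0.05 was found for 15 of the 78 at stage 4 and 7 at stage 6, where DESeq2 called 5 and 3. Of all genes DESeq2 called 861 and 495 at these stages, against 503 and 313 in edgeR. The share of all genes with an unadjusted p under 0.05 is not given here. With total counts alone the split was 10 higher and 1 lower at stage 3 and 1 and 3 at stage 5, where 71.6% and 43.1% of all genes called were higher. Leaving out each of the 4 libraries in turn gave 1 to 10 calls at stage 3, 0 to 1 at stage 4, 0 to 2 at stage 5 and 0 at stage 6.

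The genes med26 and ints10 were each called lower in 2 of the 5 comparisons with WT at stages 3 to 6, and med6 in 1. These comparisons include rescue of stage 6. At stage 3, med6 had 3.94 and 3.33 CPM in E2F1 MO embryos, against 6.16 and 5.92 CPM in WT. Whether these calls held on leaving out a library is not given here. The gene called in E2F1 MO embryos of stages 4 and 6 was aff1, the super elongation complex scaffold gene. It had 22 and 22.2 CPM in E2F1 MO embryos of stage 4, against 14.3 and 16.2 CPM in WT, and 27.2 and 31.2 CPM in E2F1 MO embryos of stage 6, against 21.9 and 20.1 CPM in WT. All E2F1 MO libraries were above both WT libraries of their stage (log2 changes of 0.54 ± 0.15 and 0.48 ± 0.13, adjusted p = 0.029 and 0.049, edgeR). Both calls were lost on leaving out any of the 4 libraries, with adjusted p of 0.088 to 0.33 at stage 4 and 0.066 to 0.43 at stage 6. In rescue embryos of stage 6, aff1 had 30.1 and 32 CPM, also above WT (0.57 ± 0.13, adjusted p = 0.0085), a call lost without WT replicate 2 (adjusted p = 0.18) or rescue replicate 2 (adjusted p = 0.14). The Mediator tail gene med15 had 72.8 and 62.4 CPM in E2F1 MO embryos of stage 3, against 55.2 and 53.6 CPM in WT, and 79.6 and 79.8 CPM in E2F1 MO embryos of stage 5, against 67.2 and 63.4 CPM in WT. Its call at stage 3 (adjusted p = 0.0063) was lost without WT replicate 2 (adjusted p = 0.071) or E2F1 MO replicate 1 (adjusted p = 0.32), and its call at stage 5 (adjusted p = 0.016) without any of the 4 libraries (adjusted p of 0.052 to 0.25).

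**Figure D3:**
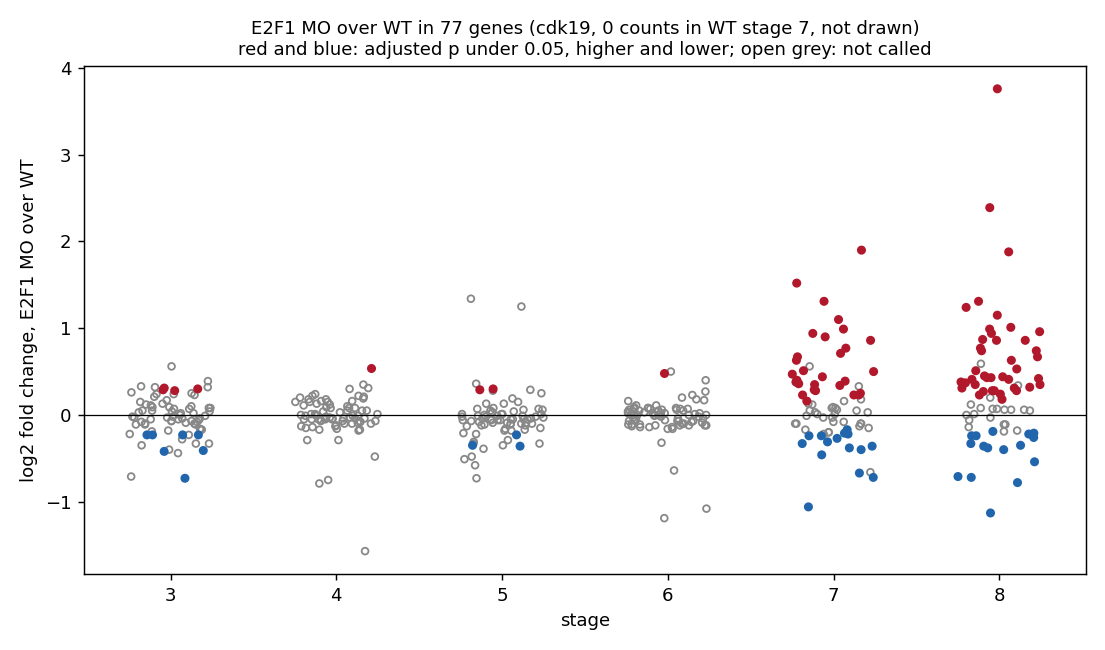
Log2 fold change of E2F1 MO over WT (y axis) at 6 stages (x axis, spread sideways for display), with a point per gene for 77 genes; red and blue points passed an adjusted p of 0.05 and open points did not. The called points are few up to stage 6 and more numerous, on both sides of 0, at stages 7 and 8.

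At stages 7 and 8 many more of the genes differed from WT. In double MO embryos of stage 7, 32 were higher and 22 lower (25.6% and 24.7%, 50.3% together, of all genes), and at stage 8, 37 were higher and 20 lower (28% and 27.2%, 55.2% together). In OTX1 MO embryos of stage 7, 28 were higher and 21 lower (25.3% and 23.9%, 49.2% together), and at stage 8, 39 were higher and 20 lower (28.1% and 26.4%, 54.6% together). In rescue embryos of stage 6, 2 were higher and 1 lower (1.54% and 1.48%, 3.01% together; 1 and 1 on total counts, where 31.1% of all genes called were higher), and 1 was called without WT replicate 1 and 0 without rescue replicate 2. In rescue embryos of stage 7, 21 were higher and 11 lower (16.5% and 16.8%, 33.3% together). On total counts 17 were higher and 14 lower, where 41.2% of all genes called were higher. A fit to the 4 libraries alone called 58 of the 78 and 8386 of all genes, against 5349 of all genes in the fit to all libraries. In rescue embryos of stage 8, 33 were higher and 18 lower (27% and 25.2%, 52.2% together). In E2F1 MO embryos of stage 7, 31 were higher and 15 lower (25.3% and 22%, 47.2% together), and at stage 8, 41 were higher and 17 lower (26.2% and 23.7%, 49.8% together). Higher members were a larger share than higher genes overall in all 8 comparisons at stages 7 and 8, at 26.9% to 52.6% of the 78. The comparisons of a stage share their WT libraries. Lower members were also a larger share than lower genes overall in double MO and OTX1 MO embryos of stage 7, and a smaller share in the other comparisons.

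Against WT of the other stage the counts changed most for rescue embryos of stage 8, where 19 were higher and 10 lower than WT of stage 7 (39.8% of all genes called in either direction). Embryos of stage 7 set against WT of stage 8 had 32 higher and 21 lower with double MO (53.9% of all genes), 32 and 17 with OTX1 MO (52.8%), 28 and 16 with rescue (48.7%) and 37 and 16 with E2F1 MO (51.7%). Embryos of stage 8 set against WT of stage 7 had 30 higher and 18 lower with double MO (53%), 31 and 19 with OTX1 MO (52.6%) and 31 and 8 with E2F1 MO (42.6%). Of the 42 other pathway genes, 17 were higher and 15 lower in double MO, 16 and 15 in OTX1 MO, 18 and 8 in rescue and 16 and 10 in E2F1 MO embryos of stage 8 than in WT of stage 8.

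In all 8 comparisons with WT at stages 7 and 8, 7 genes were higher (ccnt2, cdk9, cpsf2, ints11, ints6l, med31 and med7) and 1 was lower (ints7), while the head gene med20 was called in none. These comparisons share their WT libraries within a stage, and each called 33.3% to 55.2% of all genes. The share of all genes called alike in all 8 is not given here. Against WT of the other stage, ccnt2, cpsf2, ints11 and med7 were again higher in all 8. The genes cdk9 and ints6l were then not called in double MO, OTX1 MO and rescue embryos of stage 7, nor were med31 and ints7 in E2F1 MO embryos of stage 8. Values with ± below are log2 changes with their SE. The Mediator middle gene med31 had 34.5 and 33.6 CPM in double MO, 33.8 and 29.6 CPM in OTX1 MO, 47.7 and 34.7 CPM in rescue and 27.4 and 25.8 CPM in E2F1 MO embryos of stage 8, against 11.6 and 11 CPM in WT. Every injected library was above both WT libraries. WT itself was lower at stage 8 than at stage 7 (log2 change of -1.07 ± 0.12, edgeR), and the test called no difference between E2F1 MO embryos of stage 8 and WT of stage 7 (0.17 ± 0.10, adjusted p = 0.2). The differences from WT of stage 7 were 0.52 ± 0.10 in double MO, 0.42 ± 0.10 in OTX1 MO and 0.80 ± 0.10 in rescue embryos of stage 8. The middle gene med7 had 32.7 and 33.6 CPM in double MO embryos of stage 7, against 12.2 and 12.5 CPM in WT (1.43 ± 0.11, adjusted p = 5.9e-14), and was also above WT of stage 8 (1.18 ± 0.12, adjusted p = 2.8e-11). In the same module med21 had 31.6 and 33.8 CPM in double MO, 25.1 and 27.3 CPM in OTX1 MO, 10.6 and 12.4 CPM in rescue and 17.4 and 16.8 CPM in E2F1 MO embryos of stage 8, against 14.4 and 12.3 CPM in WT. Double MO libraries were the highest and rescue libraries the lowest, and rescue overlapped WT. Against WT of stage 7, with 19.3 and 17.9 CPM, double MO and OTX1 MO of stage 8 were again higher (0.81 ± 0.12 and 0.49 ± 0.12), rescue was lower (-0.69 ± 0.13, adjusted p = 4.9e-05) and E2F1 MO was no longer above (-0.12 ± 0.12, adjusted p = 0.47). The call of E2F1 MO against WT of stage 8 (adjusted p = 0.027, edgeR) was also lost without WT replicate 2 or either E2F1 MO replicate (adjusted p of 0.06 to 0.25). The Integrator gene ints7 had 108 and 106 CPM in double MO and 127 and 122 CPM in E2F1 MO embryos of stage 8, against 149 and 140 CPM in WT, a smaller difference than those of the genes above. WT of stage 7 had 122 and 119 CPM. Against it double MO of stage 8 was lower by a smaller margin (-0.17 ± 0.06, adjusted p = 0.025) and E2F1 MO lay slightly on the other side (0.05 ± 0.06, adjusted p = 0.58, edgeR). The ints7 call was lost for double MO of stage 7 without WT replicate 1 or either double MO replicate, and for rescue of stage 7 without WT replicate 1 or rescue replicate 2. It was lost for E2F1 MO of stage 7 without E2F1 MO replicate 2, and for E2F1 MO of stage 8 without WT replicate 1 or E2F1 MO replicate 2 (adjusted p of 0.051 to 0.1).

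Among the kinases and cyclins, ccnk separated the morpholinos. At stage 7 it had 32 and 34.2 CPM in double MO, 33.7 and 33.1 CPM in OTX1 MO, 69.5 and 68.4 CPM in rescue and 99.8 and 98.7 CPM in E2F1 MO embryos, against 40.7 and 39.1 CPM in WT. E2F1 MO embryos were far above WT of stage 7 (1.31 ± 0.07, adjusted p = 7.9e-19, edgeR) and below WT of stage 8 (-0.41 ± 0.07, adjusted p = 5.5e-06). Against WT of stage 8 the double MO, OTX1 MO and rescue embryos of stage 7 differed by -1.99 ± 0.08, -1.98 ± 0.08 and -0.93 ± 0.07, so rescue lay between the WT stages. At stage 8 it had 37.8 and 37.6 CPM in double MO and 41.8 and 38.4 CPM in OTX1 MO embryos, against 131 and 132 CPM in WT (-1.80 ± 0.07 and -1.71 ± 0.07, adjusted p = 3e-23 and 1.4e-22). Both groups lay near WT of stage 7, with differences of -0.08 ± 0.07 and 0.01 ± 0.07 (adjusted p = 0.38 and 1). The gene cdk9 had 185 and 185 CPM in E2F1 MO embryos, against 86.5 and 85.8 CPM in WT of stage 7 (1.10 ± 0.09, adjusted p = 3.7e-12), and exceeded WT of stage 8 as well (0.59 ± 0.09, adjusted p = 1.8e-06). The gene ccnt1 had 146 and 143 CPM in OTX1 MO embryos of stage 8, against 53.3 and 52.7 CPM in WT (1.45 ± 0.08, adjusted p = 9.1e-19), and was also above WT of stage 7 (0.83 ± 0.08, adjusted p = 3.4e-12).

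**Figure D4:**
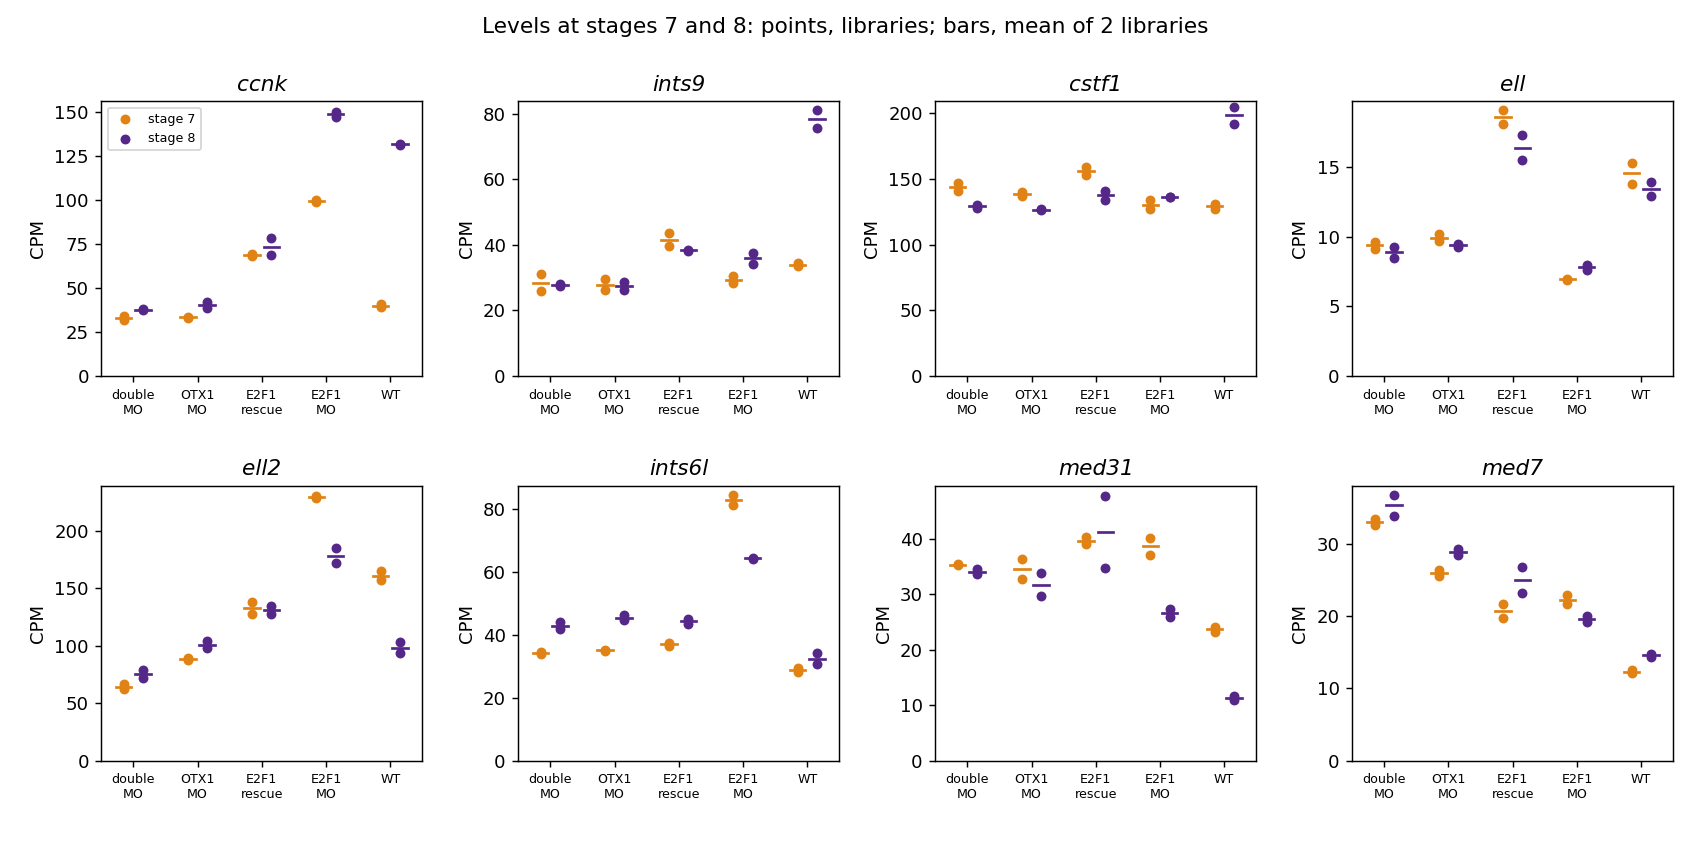
CPM of 8 genes in double MO, OTX1 MO, E2F1 rescue, E2F1 MO and WT embryos at stages 7 (orange) and 8 (purple), with a point per library and a bar at the mean of 2 libraries. For ccnk, ints9 and cstf1 the double MO and OTX1 MO embryos of stage 8 lie below WT of stage 8 and near WT of stage 7, and ints6l is highest in E2F1 MO embryos.

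In Integrator, ints9 was low in every injected group of stage 8. It had 27.6 and 28.2 CPM in double MO, 28.8 and 26.3 CPM in OTX1 MO, 38.5 and 38.1 CPM in rescue and 37.4 and 34.3 CPM in E2F1 MO embryos, against 81 and 75.6 CPM in WT. All 8 injected libraries lay below both WT libraries, with log2 changes of -1.49 ± 0.08, -1.51 ± 0.08, -1.03 ± 0.08 and -1.13 ± 0.08 in that order of groups. Against WT of stage 7 the difference of E2F1 MO embryos was 0.08 ± 0.08 (adjusted p = 0.48, edgeR). Those of double MO, OTX1 MO and rescue embryos were -0.29 ± 0.08, -0.30 ± 0.08 and 0.17 ± 0.08 (adjusted p = 0.0028, 0.0017 and 0.09). Among groups of stages 7 and 8, the Ints6 paralog gene ints6l was highest in E2F1 MO embryos of stage 7. It had 84.4 and 81 CPM there, against 28.2 and 29.5 CPM in WT of stage 7 (1.52 ± 0.08, adjusted p = 3.5e-20, edgeR). It exceeded WT of stage 8 by 1.36 ± 0.08 (adjusted p = 3.6e-18). In rescue embryos of stage 7 it had 37.2 and 36.5 CPM, below E2F1 MO embryos (-1.17 ± 0.08, adjusted p = 2e-16). In the 3′ end group, cstf1, which encodes a CstF subunit, had 128 and 130 CPM in double MO and 126 and 127 CPM in OTX1 MO embryos of stage 8, against 205 and 192 CPM in WT (-0.62 ± 0.06 and -0.64 ± 0.06). Against WT of stage 7 these differences were 0.00 ± 0.06 and -0.02 ± 0.06 (adjusted p = 1 and 0.79).

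The paralogs ell and ell2 went different ways in E2F1 MO embryos. At stage 7, ell had 6.99 and 6.91 CPM in E2F1 MO, against 13.8 and 15.3 CPM in WT (-1.06 ± 0.11, adjusted p = 1.8e-10, edgeR), and was also below WT of stage 8 (-0.95 ± 0.12, adjusted p = 1.3e-08). In rescue embryos ell had 19.1 and 18.1 CPM at stage 7 and 15.5 and 17.3 CPM at stage 8, above E2F1 MO embryos at both stages (1.42 ± 0.11 and 1.07 ± 0.12, adjusted p = 9.3e-14 and 4.9e-10). At stage 7, ell2 had 62 and 66.7 CPM in double MO, 89.8 and 87.6 CPM in OTX1 MO and 231 and 229 CPM in E2F1 MO embryos, against 165 and 157 CPM in WT. The double MO and OTX1 MO libraries were below WT (-1.32 ± 0.07 and -0.86 ± 0.07, adjusted p = 1.6e-19 and 4.8e-14), and the E2F1 MO libraries were above it (0.51 ± 0.07, adjusted p = 2e-08). In WT, ell2 fell at stage 8. Against WT of stage 8 the difference was -0.61 ± 0.07 in double MO (adjusted p = 1.1e-09), -0.15 ± 0.07 in OTX1 MO (adjusted p = 0.073, not called) and 1.22 ± 0.07 in E2F1 MO embryos (adjusted p = 1.2e-18, edgeR). Rescue embryos of stage 7, with 138 and 128 CPM, were below WT of stage 7 (-0.27 ± 0.07, a call lost without rescue replicate 2 at an adjusted p of 0.053) and above WT of stage 8 (0.44 ± 0.07).

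The kinase gene cdk19 stayed low, and its differences rest on few reads. At stage 7 it had 0.579 and 1.09 CPM in rescue (45 counts) and 2.48 and 1.71 CPM in E2F1 MO embryos (136 counts), against 0 counts in both WT libraries. Set against 3 counts over the WT libraries (0.0438 CPM), it was at least 19.1-fold higher in rescue and at least 47.8-fold higher in E2F1 MO embryos. At stage 7 it was also called higher in OTX1 MO (3 and 4 counts) and double MO embryos (2 and 5 counts). WT libraries of stages 3 to 6 held 2 to 17 counts each, so WT of stage 7 was itself low. In WT of stage 8 cdk19 had 46 counts, at least 29.5-fold above WT of stage 7. Neither rescue nor E2F1 MO embryos of stage 7 differed detectably from WT of stage 8 (-0.62 ± 0.59 and 0.70 ± 0.54, adjusted p = 0.41 and 0.3, edgeR). At stage 8 the order was the other way: cdk19 had 4 and 4 counts in OTX1 MO and 2 and 2 counts in E2F1 MO embryos, against 23 and 23 counts in WT (-3.56 ± 0.75 and -4.25 ± 0.85, adjusted p = 9.6e-05 and 5.5e-05). Double MO embryos had 25 and 1 counts, a fall (-1.93 ± 0.63, adjusted p = 0.009) that was lost without double MO replicate 2 (adjusted p = 0.15) or WT replicate 2 (adjusted p = 0.051). Rescue embryos had 16 and 13 counts and were not called (-0.97 ± 0.62, adjusted p = 0.2). All of these stage 8 libraries had more counts than the 0 of WT of stage 7. The E2F1 MO libraries and 1 double MO library held fewer than 3 counts, however, too few to set them apart from 0.

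Rescue embryos were also set against E2F1 MO embryos. At stage 6, 0 were higher and 1 lower (0.0436% and 0.0872%, 0.131% together, of all genes, edgeR), while 11 of the 78 had an unadjusted p under 0.05 and DESeq2 called 1. Of all genes DESeq2 called 91, against 21 in edgeR, and their share with an unadjusted p under 0.05 is not given here. The called gene was the Integrator gene ints10, with 21.7 and 21.7 CPM in rescue, against 29.9 and 28.3 CPM in E2F1 MO embryos (-0.42 ± 0.09, adjusted p = 0.046). That call was lost without any of the 4 libraries (adjusted p of 0.11 to 0.53). At stage 7, 18 were higher and 25 lower (20.1% and 23.3%, 43.4% together; 14 and 36 on total counts, where 37.2% of all genes called were higher). At stage 8, 17 were higher and 32 lower (20.1% and 19.8%, 39.9% together), of 49 called. A fit to the 4 libraries alone called 22 of the 78 and 3311 of all genes, against 6410 of all genes in the fit to all libraries. The count of members was also lower without rescue replicate 1. Of the 15 Integrator genes, 0 were higher and 9 lower in rescue at stage 8, and of the 7 ELL and AFF genes 1 was higher and 5 lower. The ELL and AFF genes include aff2, aff3 and ell3, whose levels are near the limit of detection. These splits are not given for the 4 libraries alone or without rescue replicate 1, where fewer members were called. The splits of the other role groups are not given here. The rescue libraries differed for some genes, such as ints3 with 41.2 and 60.3 CPM and aff1 with 26.3 and 36.7 CPM. They were close for others, such as ints12 with 13.3 and 13.4 CPM. The cyclin K gene ccnk had 68.6 and 78.1 CPM in rescue, against 147 and 150 CPM in E2F1 MO embryos of stage 8 (-1.02 ± 0.07, adjusted p = 3.3e-15), without overlap.

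Few members separated double MO from OTX1 MO embryos. At stage 7, 3 were higher and 4 lower in double MO (1.64% and 2.1%, 3.74% together, of all genes; 5 and 4 on total counts, where 64.1% of all genes called were higher), and at stage 8, 3 were higher and 4 lower (1.26% and 1.42%, 2.68% together). Of these 7 and 7 calls, leaving out OTX1 MO replicates 1 and 2 and double MO replicates 1 and 2 in turn gave 2, 3, 12 and 3 at stage 7 and 3, 3, 3 and 1 at stage 8. The elongation factor gene ell2 kept its call throughout these, with 78.9 and 71.5 CPM in double MO, against 104 and 98 CPM in OTX1 MO embryos of stage 8 (-0.43 ± 0.07, adjusted p = 6.2e-05, edgeR), and a log2 change of -0.46 ± 0.07 at stage 7 (adjusted p = 2.3e-05). Against E2F1 MO embryos, 15 were higher and 29 lower in double MO at stage 7 (20.5% and 24.1%, 44.6% together), and at stage 8, 16 were higher and 20 lower (20.9% and 22.3%, 43.2% together). Among members with at least 1 CPM in the higher group, the largest fall there at stage 8 was that of ccnk (-1.98 ± 0.07, adjusted p = 1.2e-24). The NELF gene nelfb was higher, with 148 and 153 CPM in double MO, against 91.4 and 87.3 CPM in E2F1 MO embryos of stage 7 (0.75 ± 0.06, adjusted p = 3.8e-14).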

How the data were processed

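Whole Xenopus tropicalis embryos were sequenced as RNA, and the authors deposited 1 table holding, for each gene, its length and the raw count in every library, in whole numbers without normalization. The submitters' processing notes name deepTools, featureCounts 2.0.1, fastp and STAR 2.7.0e. How strand was treated in counting, the genome build and the annotation were not given in the sources used here. For that reason overlapping genes, antisense genes and near-identical copies are uncertain and no coordinates are given. The library kit selects mRNA, per the labels' protocols, so a change in RNA and a change in the share captured cannot be told apart.

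The members, role groups and lists were chosen with earlier results of these data known. Members were the rows whose names match the gene families; all 78 are RefSeq symbols. The test was that of edgeR 4.0.16, run with limma 3.58.1 under R 4.3.3: TMM factors, filterByExpr (minimum count of 10), 1 mean per group over 44 libraries, a robust quasi-likelihood fit with 22 residual degrees of freedom, and Benjamini-Hochberg adjustment over the 16064 genes tested. Genes were called at an adjusted p under 0.05. CPM uses the TMM-adjusted library size; RPKM divides it by the table's gene length. The SE values come from the quasi-likelihood test, so they include the spread between libraries as fitted over all 22 groups. They are not the spread of the libraries compared, and can be too small for groups whose replicates differed most. The floors of 3 counts cover counting error only. The code was tested on simulated data. A first pass mark, over all genes given the largest change, was not met. The mark was then limited to genes with at least 10 expected reads per WT library, so it does not cover genes below that. Alternatives were DESeq2 1.42.0, RLE factors, total counts, no filter, the 4 libraries of a comparison, a replicate block, leaving out each library (with the dispersion trend of all libraries) and, added after the data were seen, the other WT stage. Genes named are the 5 largest called rises and falls of a comparison with at least 1 CPM, the 3 most variable members of a role group over WT stages, members called in 3 or more injected comparisons, paralog pairs, and e2f1 and otx1; only some are given. Replicates of 1 group differed by more than sampling noise, most in rescue of stage 8, WT of stage 10 and double MO of stage 7.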

Additional observations from a re-analysis of the deposited data

Results flagged for a closer look

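The effect of E2F1 MO over WT was compared between stages by a contrast of the 4 groups in edgeR, and it differed for 34 of the 78 genes between stages 7 and 6 (29.5% of all genes tested were called). Values below are differences of log2 effects. At stage 7 minus stage 6 the largest positive differences were 3.09 for aff2, 1.65 for aff3, 1.51 for ints6l and 1.35 for ccnk. The largest negative ones were -1.05 for ell, -0.81 for cpsf1, -0.58 for cstf2, -0.49 for ints13 and -0.36 for ints2. The calls of aff2, aff3 and ints2 were lost on leaving out 1 library or another.

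Between stages 8 and 7 that effect differed for 39 of the 78 genes (39% of all genes). Positive differences were 1.46 for cpsf1, 1.41 for ints4, 1.27 for med17, 0.9 for med28 and 0.64 for ints14. Negative differences were -1.14 for ccnk, -0.92 for ints9, -0.88 for ints3 and -0.83 for aff1. Both stage contrasts use the E2F1 MO and WT libraries of stage 7, in which the blastula and gastrula markers stood at 35 to 36 CPM in E2F1 MO, against 0.612 to 0.79 CPM in WT; their part in these differences was not tested.

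The interaction of the morpholinos, the difference of double MO over OTX1 MO minus that of E2F1 MO over WT, was called for 36 of the 78 genes at stage 7 (34.3% of all genes). It was 0.98 for ell, 0.95 for cstf2, 0.72 for cpsf1, 0.58 for med9 and 0.57 for ints13, and -1.55 for ints6l, -1.32 for ccnk, -1.25 for aff3 and -1.2 for aff1. At stage 8 it was called for 43 genes (35.9% of all genes), at 1.14 for ints9, 0.76 for ints3, 0.7 for ell and 0.66 for med22, and at -3.58 for aff2, -2.07 for aff3, -1.66 for med11, -1.44 for ccnt1 and -1.29 for ell2. The calls of aff3 at both stages were lost on leaving out 1 library or another. Only the WT embryos of this contrast were not injected, so an effect of injection does not cancel in it. Such an effect cannot be told apart here from an interaction of the targets. The contrast also holds the E2F1 MO and WT groups whose markers differed at stage 7, and the part of that difference was not tested.

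The kinase gene cdk19 had fitted values of 8.38 for stage 7 minus 6, -12.85 for stage 8 minus 7, and -8.5 and 5.89 for the interactions at stages 7 and 8. WT of stage 7 held 0 counts of it, so the fitted values that involve that group depend on the prior count and give no size, and the call at stage 8 was lost without double MO replicate 1.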

How the results depend on the processing

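Each count of called genes below stands beside its value under the settings that moved it by more than 1.5 times. For WT of stage 4 against stage 3 it was 8, against 18 with total counts, 14 with DESeq2, 17 with the 4 libraries alone and 1 to 6 on leaving out a library. For stage 6 against 5 it was 15, against 24 with the 4 libraries alone and 3 to 10 on leaving out a library, and for stage 9 against 8 it was 29, against 18 to 21. For E2F1 MO against WT at stage 3 it was 11, against 18 with DESeq2, 5 with the 4 libraries alone and 1 to 10 on leaving out a library. At stage 4 it was 1, against 0 with RLE factors, 4 with total counts, 2 without the filter, 2 with the replicate block, 5 with DESeq2, 14 with the 4 libraries alone and 0 to 1 on leaving out a library. At stage 5 it was 5, against 0 to 2 on leaving out a library. At stage 6 it was 1, against 0 with RLE factors, 2 without the filter, 0 with the replicate block, 3 with DESeq2, 2 with the 4 libraries alone and 0 on leaving out any library. For rescue against WT it was 3 at stage 6, against 0 to 2 on leaving out a library, 32 at stage 7, against 58 with the 4 libraries alone, and 51 at stage 8, against 29 with the other WT stage. For rescue against E2F1 MO it was 1 at stage 6, against 0 with the replicate block, with the 4 libraries alone and on leaving out any library, and 49 at stage 8, against 22 with the 4 libraries alone and 31 to 51 on leaving out a library. For double MO against OTX1 MO it was 7 at stage 7, against 12 without the filter, 4 with the 4 libraries alone and 2 to 12 on leaving out a library, and 7 at stage 8, against 16 with the 4 libraries alone and 1 to 3 on leaving out a library. With the 4 libraries alone the counts of all genes called moved too. They were 1950 against 503 for E2F1 MO over WT at stage 4 and 8386 against 5349 for rescue over WT at stage 7. At stage 8 they were 3311 against 6410 for rescue against E2F1 MO and 967 against 431 for double MO against OTX1 MO. With RLE factors, where the E2F1 MO call at stage 4 was lost, all genes called rose to 547 against 503. The cause was not tested for any of these. The other counts stayed within 1.5 times under the settings run. The value of med14 for rescue against WT at stage 8 reversed to -0.01 without rescue replicate 2 (adjusted p = 0.99, edgeR) and was 0.34 without rescue replicate 1. The replicate numbers did not pair samples: same-numbered deviations correlated at -0.07 to 0.16 over the 30 compared pairs, 2 of them over 0.1. The other wild-type stage was chosen after seeing the data. With 2 libraries a group and 3 counts at 0.0706 to 0.329 CPM, levels of aff2, aff3, ell3 and cdk19 are near the limit of detection.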
